A study of Mus musculus with 9 samples.

Results

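The genes described here are 37 named members of glycolysis and of the response to low oxygen, picked by symbol from the gene table of the series; 36 of the 37 had a row among the 14771 genes analysed, and all 36 had counts enough to test. Plod2, a lysyl hydroxylase gene, was not analysed here. The members were divided by role into 2 transporters, 15 glycolytic enzymes, 3 regulators of glycolytic flux, 5 genes of the transcription factor HIF and its control, and 11 further targets of HIF. Many of the enzyme and transporter genes are also known HIF targets, so the roles describe what the proteins do and are not separate control groups.

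The expression of these genes was measured by RNA sequencing of MH-S, an immortalised mouse cell line derived from alveolar macrophages, with 3 groups and 3 libraries in each. CON had only culture medium added, and LPS had lipopolysaccharide at 1 µg/ml for 4 h, which TLR4 senses as a part of the bacterial surface. Samples of SUR carry suramin, a large polyanionic drug, as their treatment label, while the protocol names suramin (200 µM) in combination with the same LPS dose and time; SUR is therefore read as both agents together. No group had suramin alone, so an action of suramin by itself and an action on the LPS response cannot be told apart. Cells of all groups were kept in medium with serum and mercaptoethanol, and no group is labelled as hypoxic. A line in culture stands for lung macrophages only in part: Csf1r (254 to 306 FPKM), Cd68 and Adgre1, general macrophage markers, were abundant, while the alveolar macrophage genes Siglecf (8 counts over all 9 libraries), Marco (1 count), Chil3 (2 counts) and Pparg (30 counts) were nearly silent. Other genes of that list were expressed, with Fabp5 at 381 to 964 FPKM, Mrc1 at 13.5 to 38.8 FPKM, Fabp4 at 8.33 to 11.2 FPKM and Itgax at 1.84 to 3.29 FPKM. Summed markers of epithelial cells (at most 0.0617 CPM), of fibroblasts and endothelium (at most 1.32 CPM) and of lymphocytes and neutrophils (at most 0.302 CPM) were close to 0 in every library. Of the 8 markers listed for each, only 1, 6 and 4 had a row among the genes analysed. No label says whether the replicates came from separate cultures, so p-values measure the spread between these libraries only, which may be technical. Library totals ran from 15729402 to 16675250 counts.

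Glycolysis breaks glucose down to pyruvate through a chain of cytosolic enzymes, and macrophages activated through TLR4 are known to lean on it, with lactate as the exported end product. HIF is a dimer of an oxygen-regulated alpha subunit, encoded by Hif1a, and a constant partner, encoded by Arnt. In oxygen, prolyl hydroxylases of the Egln family mark the alpha subunit and the VHL ubiquitin ligase has it destroyed; when it persists, it binds a short DNA core and raises glucose uptake, glycolytic enzymes, collagen hydroxylases and mitophagy genes.

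The promoters of 6 members are shown because their genes moved in different ways below and differ in how often they carry the HIF core. Capitals mark every ACGTG or GCGTG on either strand (CACGT and CACGC where the match is on the other strand). Each window runs from 250 bases before to 50 bases after an annotated start of the gene, which need not be its outermost, in the direction of the gene, from RefSeq on GRCm38.p6.
Slc2a1, chr4:119108495-119108794, + strand: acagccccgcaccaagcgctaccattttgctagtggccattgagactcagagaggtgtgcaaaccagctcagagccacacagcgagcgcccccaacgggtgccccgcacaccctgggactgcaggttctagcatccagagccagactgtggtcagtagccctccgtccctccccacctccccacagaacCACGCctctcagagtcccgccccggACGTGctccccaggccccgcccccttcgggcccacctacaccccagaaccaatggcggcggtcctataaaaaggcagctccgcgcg
Ldha, chr7:46845554-46845853, + strand: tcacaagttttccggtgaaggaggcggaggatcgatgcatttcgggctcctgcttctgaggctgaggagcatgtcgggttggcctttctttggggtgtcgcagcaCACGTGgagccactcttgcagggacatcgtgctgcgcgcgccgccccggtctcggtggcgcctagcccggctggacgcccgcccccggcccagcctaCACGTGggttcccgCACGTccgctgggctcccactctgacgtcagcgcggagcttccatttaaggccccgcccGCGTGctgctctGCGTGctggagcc
P4ha1, chr10:59323046-59323345, + strand: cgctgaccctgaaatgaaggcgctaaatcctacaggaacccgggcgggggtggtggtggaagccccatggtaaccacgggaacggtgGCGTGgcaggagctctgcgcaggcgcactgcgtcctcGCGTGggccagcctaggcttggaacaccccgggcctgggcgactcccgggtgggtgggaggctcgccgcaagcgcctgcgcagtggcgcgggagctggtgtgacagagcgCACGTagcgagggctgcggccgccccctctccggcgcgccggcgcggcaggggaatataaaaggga
Ankrd37, chr8:45999801-46000100, - strand: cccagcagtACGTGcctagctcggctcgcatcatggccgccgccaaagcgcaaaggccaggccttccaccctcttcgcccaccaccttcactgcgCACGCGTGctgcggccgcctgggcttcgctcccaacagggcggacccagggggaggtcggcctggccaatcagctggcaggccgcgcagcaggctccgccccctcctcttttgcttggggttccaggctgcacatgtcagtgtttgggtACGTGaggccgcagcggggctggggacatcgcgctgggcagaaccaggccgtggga
Hif1a, chr12:73907617-73907916, + strand: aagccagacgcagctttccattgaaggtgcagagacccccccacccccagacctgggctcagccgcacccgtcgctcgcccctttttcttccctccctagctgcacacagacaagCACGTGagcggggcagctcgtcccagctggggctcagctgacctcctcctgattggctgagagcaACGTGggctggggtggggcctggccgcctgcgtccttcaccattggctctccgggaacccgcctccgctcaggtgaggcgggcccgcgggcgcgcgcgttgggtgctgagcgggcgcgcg
Vhl, chr6:113623744-113624043, + strand: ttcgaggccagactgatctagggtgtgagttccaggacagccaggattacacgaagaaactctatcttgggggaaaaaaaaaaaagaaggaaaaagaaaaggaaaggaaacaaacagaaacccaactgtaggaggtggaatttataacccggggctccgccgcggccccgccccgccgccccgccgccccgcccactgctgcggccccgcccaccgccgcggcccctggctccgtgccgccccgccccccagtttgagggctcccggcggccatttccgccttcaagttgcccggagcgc

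The Slc2a1 window held 2 matches, that of Ldha 7, P4ha1 3, Ankrd37 4, Hif1a 3 and Vhl 0; overlapping matches, such as both strands of CACGTG in Ldha, each counted. Ldha had a further window with 2. Windows were found by gene ID for 34 of the 36 members, and 31 of these (91.2%) had the core in at least 1 window, 9 of 9 among the further HIF targets and 13 of 15 among the enzymes. The core is short, and it was also in 68.0% of the 9140 tested genes that had a window. Counted by window, it was in 79.6% of the 49 member windows and in 43.8% of all 32851 windows. The core contains CG, and the members' windows held somewhat more CG (a median of 25 per gene for members and 22 for tested genes, taking the richest window). A match is a string of letters and not evidence of binding, and the absence of a match in Vhl says only that these letters were not in this window.

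Per transcript length, enzymes of the later steps of glycolysis had the highest levels in the set. Gapdh, which oxidises glyceraldehyde phosphate, had a mean of 2794 FPKM over the 9 libraries and ranked 34th of all 14771 genes. Mif, a cytokine gene and HIF target, followed at 1054 FPKM, then Pkm (pyruvate kinase, 966 FPKM), Aldoa (aldolase, 883 FPKM) and Ldha (lactate dehydrogenase, 795 FPKM). Among the members, enzymes of the commitment steps were far lower, with Hk1 and Hk2 (hexokinases) at 44.9 and 33.8 FPKM and the phosphofructokinase genes Pfkp, Pfkl and Pfkm at 42.1, 27.3 and 14.1 FPKM. Hk3, a hexokinase gene outside the set, was higher than Hk1 and Hk2, with means of 153, 146 and 150 FPKM in CON, LPS and SUR. Hif1a stood at 33.8 FPKM, Arnt at 25.6 FPKM, Egln1 at 18.6 FPKM and Vhl at 8.18 FPKM. P4ha2, a collagen prolyl hydroxylase gene, was the lowest member at 0.274 FPKM and below 1 CPM in every library.

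The comparison of LPS with CON asked which of these genes responded to LPS within 4 h. Both transporter genes and Hif1a rose, while Vhl, Egln1, Plod1 and Ankrd37 fell, and edgeR called no glycolytic enzyme. Levels below are in CPM (counts over the library size after TMM scaling), in the order of libraries 1, 2 and 3. Slc2a1, the GLUT1 glucose transporter gene (chromosome 4, 119108745 to 119137330), stood at 173, 122 and 128 CPM in CON and 291, 216 and 234 CPM in LPS. Every LPS library was above every CON library, and the log2 fold change was 0.81 (SE 0.167, edgeR adjusted p = 0.00923, from the quasi-likelihood F test, adjusted by Benjamini-Hochberg over 11281 genes). Slc16a3, the MCT4 lactate exporter gene (chromosome 11, 120948484 to 120959000), went from 288, 180.1 and 225 CPM to 386, 302 and 374 CPM (log2 fold change 0.61, SE 0.167, edgeR adjusted p = 0.0337). The groups did not overlap, yet this call was lost without CON 2, CON 3, LPS 1, LPS 3 or SUR 3 (edgeR adjusted p up to 0.107) and on FPKM (limma adjusted p = 0.0741). It was also lost when only the CON and LPS libraries were fitted.

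Hif1a (chromosome 12, 73901324 to 73947554) stood at 129, 112 and 108 CPM in CON and 174, 182 and 179.9 CPM in LPS. That is a 1.54-fold rise (log2 fold change 0.62, SE 0.0917, edgeR adjusted p = 0.00166), with a difference of 0.44, 0.71 and 0.74 within replicate numbers 1, 2 and 3. Vhl (chromosome 6, 113623994 to 113631634), whose product destroys the HIF alpha subunit, went the other way, from 24.8, 23.6 and 25.1 CPM to 13.1, 12.9 and 13.8 CPM. The fall was 1.84-fold (log2 fold change -0.88, SE 0.109, edgeR adjusted p = 0.000676) and nearly the same within each number (-0.91, -0.86 and -0.86). Egln1, the main HIF prolyl hydroxylase gene (chromosome 8, 124908587 to 124949254), had CON levels of 67.7, 67.1 and 68.8 CPM and LPS levels of 57.6, 56.1 and 56.8 CPM (log2 fold change -0.26, SE 0.059, edgeR adjusted p = 0.0161). Its groups were well apart, although the call was lost without CON 3, LPS 2 or LPS 3 (edgeR adjusted p up to 0.0648). Arnt overlapped between CON (109, 79.1 and 84.8 CPM) and LPS (116, 93.8 and 97.3 CPM), at a log2 fold change of 0.17 (edgeR adjusted p = 0.504); it was higher in LPS within every number and was called when the fit had the replicate number as a block, which compares libraries of the same number (adjusted p = 0.0101).

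Among further HIF targets the largest change was in Ankrd37, an ankyrin repeat gene (chromosome 8, 45996908 to 46000414). It stood at 17.6, 14.6 and 16.2 CPM in CON and at 6.21, 2.93 and 4.69 CPM in LPS, a 3.49-fold fall (log2 fold change -1.80, SE 0.362, edgeR adjusted p = 0.00825). Plod1, a lysyl hydroxylase gene (chromosome 4, 147909753 to 147936776), went from 349.6, 330.3 and 332 CPM to 289, 286 and 296 CPM (log2 fold change -0.22, SE 0.0553, edgeR adjusted p = 0.0252). This small fall was lost without CON 1, CON 3, SUR 2 or any LPS library (edgeR adjusted p up to 0.0854). It was also lost with no count filter and when only CON and LPS were fitted. Ero1l, an endoplasmic reticulum oxidase gene named Ero1a in RefSeq, stood at 230.4, 157 and 133 CPM in CON and 318, 243 and 248 CPM in LPS. The groups were apart, the log2 fold change was 0.64 (SE 0.232) and the edgeR adjusted p was 0.0975; with the block it was called (adjusted p = 1.63e-05).

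So 3 of 36 members rose and 4 fell, against 8.98% and 9.36% of all genes tested, and the median log2 fold change was 0.03 for the members and -0.01 for all tested genes. These shares (8.33% and 11.1%) were near the background. The LPS libraries all lay above the CON libraries in 10 members and all below in 5, and did so in 15.2% and 16.8% of all genes. Among the 15 enzymes the fitted values ran from -0.11 to 0.28 with a median of 0.05, and Pfkl, the liver-type phosphofructokinase gene, had the highest (edgeR adjusted p = 0.0831). Scaling matters for values this small: upper-quartile scaling put the median gene at -0.11 and the enzyme median at -0.05, and limma on the authors' FPKM put them at -0.12 and -0.09. With upper-quartile scaling 3 members rose and 5 fell, where 6.78% and 15.1% of all genes did, and on FPKM 2 rose and 5 fell, where 6.02% and 18.1% did. DESeq2 called 7 members higher (10.8% of all genes), and edgeR without the libraries numbered 1 called 10 higher (15.7% of all genes). The enzymes called in these settings were Gpi1, Pfkl, Pfkp, Hk2 and Pgk1. Gpi1 was lower with upper-quartile scaling (-0.18, edgeR adjusted p = 0.0318) and on FPKM (-0.22, limma adjusted p = 0.00813). Pfkl and Pfkp were higher with DESeq2 (adjusted p = 0.0421 and 0.0254). Without the libraries numbered 1, Hk2, Pfkl and Pgk1 were higher (0.284, 0.345 and 0.204, edgeR adjusted p = 0.0211, 0.02 and 0.0238). With the block 11 rose and 7 fell, where 20.1% and 21.7% of all genes were called. The added rises were those of Pfkl, Pfkp, Hk2, Pgk1, Arnt, P4ha1, Ero1l and Mif (adjusted p from 1.63e-05 to 0.0101) and the added falls those of Pdk1, Pfkfb4 and Bnip3 (0.00128 to 0.0412), but with the block and upper-quartile scaling together the counts turned to 6 and 14, against 13.0% and 35.6% of all genes, and 1 enzyme rose while 4 fell.

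**Figure D1:**
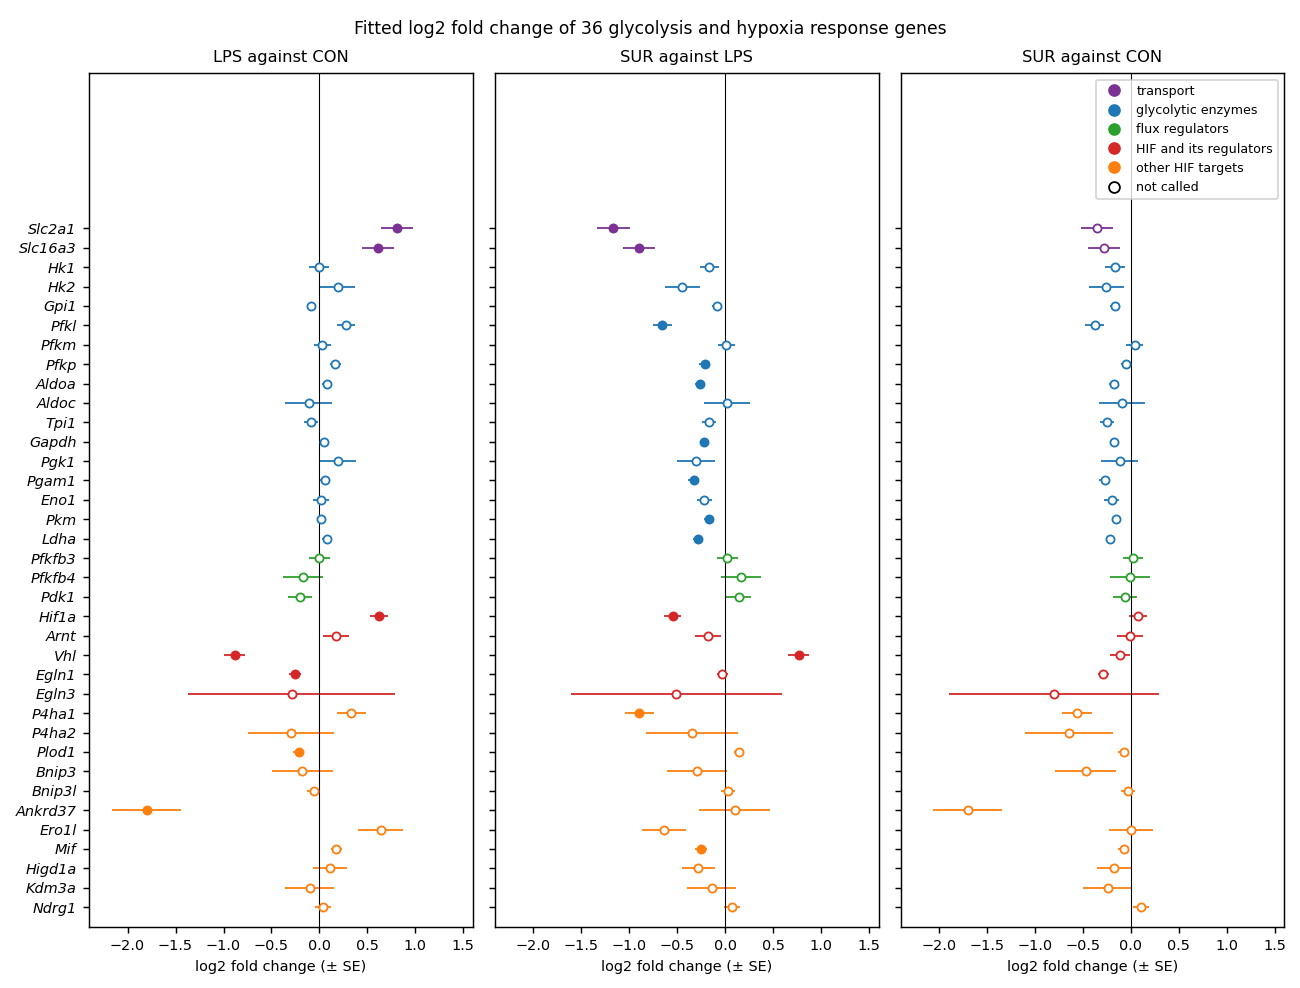
Fitted log2 fold change (horizontal axis, points with ± SE bars) of the 36 members, ordered by role and coloured by it, for the 3 comparisons; filled points were called by edgeR at an adjusted p under 0.05. LPS against CON has 7 filled points, SUR against LPS has 13, of which 12 lie below 0, and SUR against CON has 0 although 31 of 36 values lie below 0.

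SUR and LPS shared the LPS dose and differed by suramin. This comparison uses the same LPS libraries as the one above, so the calls of both are not independent. The transporter genes Slc2a1 and Slc16a3, 7 glycolytic enzymes, Hif1a, P4ha1 and Mif fell, and Vhl rose. That is 12 of 36 members lower and 1 higher, against 7.93% and 9.29% of all genes tested, with a median log2 fold change of -0.22 for the members and -0.01 for all tested genes. With the block 23 fell and 4 rose, where 22.7% and 22.6% of all genes did, and all 13 members called without the block kept their call and sign. The SUR libraries all lay below the LPS libraries in 16 members and all above in 2, and did so in 17.2% and 17.8% of all genes. Without the libraries numbered 1, 18 members fell, where 15.2% of all genes did.

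Slc2a1 had the largest fall of the set. Its SUR libraries stood at 128, 102 and 101 CPM, below every LPS library (216 to 291 CPM), a 2.24-fold fall (log2 fold change -1.16, SE 0.168, edgeR adjusted p = 0.00203). Slc16a3 stood at 201, 169.6 and 199 CPM in SUR against 302 to 386 CPM in LPS, 1.86-fold lower (log2 fold change -0.90, SE 0.168, edgeR adjusted p = 0.00676). Within numbers the differences were close to each other, from -1.09 to -1.21 for Slc2a1 and from -0.83 to -0.94 for Slc16a3.

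Among the enzymes, Pfkl (chromosome 10, 77986947 to 78009807) moved most. It stood at 113, 111 and 128 CPM in LPS and 70.2, 73.8 and 79.7 CPM in SUR, a 1.57-fold fall (log2 fold change -0.66, SE 0.0963, edgeR adjusted p = 0.0022), lower within each number by 0.59 to 0.69. Pgam1, phosphoglycerate mutase (chromosome 19, 41911871 to 41918665), went from 651, 677 and 651 CPM to 511, 546 and 520.2 CPM (log2 fold change -0.33, SE 0.0555, edgeR adjusted p = 0.00431). Ldha (chromosome 7, 46842274 to 46855627), which turns pyruvate into lactate, went from 1190, 1146 and 1170 CPM to 943, 967 and 961 CPM (log2 fold change -0.29, SE 0.0506, edgeR adjusted p = 0.00506). In each of these 3 genes the SUR libraries all lay below the LPS libraries.

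Smaller falls were called in Aldoa (chromosome 7, 126795234 to 126800994), from 1180, 1213 and 1161 CPM to 1008, 996 and 967 CPM (edgeR adjusted p = 0.0095), and in Gapdh (chromosome 6, 125161852 to 125166467), from 3435, 3392 and 3456 CPM to 2906, 2903 and 3011 CPM (edgeR adjusted p = 0.0109). Their log2 fold changes were -0.26 (SE 0.052) and -0.22 (SE 0.046). Gapdh is widely used as a reference gene in other assays. Pfkp, the platelet-type phosphofructokinase gene (chromosome 13, 6579874 to 6649060), went from 147, 141 and 135 CPM to 126, 123 and 116 CPM. Pkm (chromosome 9, 59656576 to 59679372) went from 2225, 2164 and 2160 CPM to 1936, 1922 and 1967 CPM. Both were at the edge of the threshold (edgeR adjusted p = 0.0363 and 0.0383) and lost their call in 7 and 8 of the 9 fits that left out a library. Fitting only LPS and SUR lost both calls, and using no count filter lost that of Pkm. Leaving out a library moved the fold of Aldoa, Gapdh, Pgam1 and Ldha little, and these kept their calls in all 9 fits.

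The remaining enzymes were not called without the block. Hk2 (log2 fold change -0.45, SE 0.183, edgeR adjusted p = 0.137) and Pgk1, phosphoglycerate kinase (-0.31, SE 0.196, edgeR adjusted p = 0.348), were lower in SUR within every number and were called with the block (adjusted p = 4.58e-05 and 0.000139), as were Eno1 (enolase), Tpi1 (triose phosphate isomerase) and Hk1. Gpi1, the phosphoglucose isomerase gene (-0.08), and the isoform genes Pfkm and Aldoc (0.01 and 0.02) were not called with it either. Reads of Gapdh, Pgk1, Eno1, Ldha, Pgam1 and other enzymes with processed copies in the genome may be shared or split by the authors' counting, so these values are uncertain to that extent; the retrogene Eno1b had 2.99 counts over all 9 libraries.

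The 3 genes of flux regulation had estimates above 0 in this comparison. Pfkfb3 and Pfkfb4, which set the level of the phosphofructokinase activator fructose 2,6-bisphosphate, and Pdk1, the kinase that closes pyruvate dehydrogenase, had fitted log2 fold changes of 0.02, 0.16 and 0.14 in SUR against LPS and were not called. Pfkfb3 stood at 26.9, 26.9 and 26.6 CPM in CON, 22.4, 29.2 and 28.6 CPM in LPS and 29.3, 26.7 and 25.6 CPM in SUR, and the 3 groups overlapped. With the block Pfkfb4 and Pdk1 were higher in SUR than in LPS (adjusted p = 0.0397 and 0.0117).

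Hif1a fell from 174, 182 and 179.9 CPM in LPS to 135, 121 and 111 CPM in SUR (log2 fold change -0.55, SE 0.0916, edgeR adjusted p = 0.00409). Vhl rose from 13.1, 12.9 and 13.8 CPM to 26.4, 19.99 and 21.5 CPM (log2 fold change 0.77, SE 0.109, edgeR adjusted p = 0.00191). For both genes the SUR and LPS libraries were apart, whereas the SUR and CON libraries overlapped. Egln1 stood at 59.1, 55.2 and 52.7 CPM in SUR and overlapped with LPS (log2 fold change -0.03, edgeR adjusted p = 0.806), and every SUR library lay below every CON library. Arnt in SUR (101, 84.7 and 85.2 CPM) overlapped with both other groups and was called lower than in LPS with the block (adjusted p = 0.008).

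P4ha1, the alpha subunit of the collagen prolyl hydroxylase (chromosome 10, 59323197 to 59373304), fell most among the further HIF targets. It stood at 115, 85.8 and 95.5 CPM in LPS and 60.8, 46.5 and 52.1 CPM in SUR, 1.86-fold lower (log2 fold change -0.89, SE 0.154, edgeR adjusted p = 0.00466), by 0.87 to 0.92 within numbers. Mif (chromosome 10, 75859353 to 75860277) went from 355, 373 and 359.9 CPM to 308, 304 and 302 CPM (log2 fold change -0.25, SE 0.0598, edgeR adjusted p = 0.0196), a call lost without LPS 2, LPS 3, SUR 2 or SUR 3 (edgeR adjusted p up to 0.0739). Ero1l stood at 223, 156 and 142 CPM in SUR, below every LPS library, with a log2 fold change of -0.64 (edgeR adjusted p = 0.0991, and 2.24e-05 with the block). Ankrd37, at 7.96, 3.02 and 3.86 CPM in SUR, overlapped with LPS (log2 fold change 0.10, edgeR adjusted p = 0.905). The mitophagy receptor genes Bnip3 and Bnip3l had log2 fold changes of -0.29 and 0.03, and Bnip3 was called with the block (adjusted p = 0.00236), as were Egln3, Higd1a and Kdm3a, all lower (0.00568, 0.0106 and 0.0456). Plod1 stood at 329, 313 and 319 CPM in SUR, above every LPS library, with a log2 fold change of 0.14 (edgeR adjusted p = 0.117). It was called higher with the block (0.012), with DESeq2 (0.0222), with upper-quartile scaling (0.015) and on FPKM (0.0064).

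**Figure D2:**
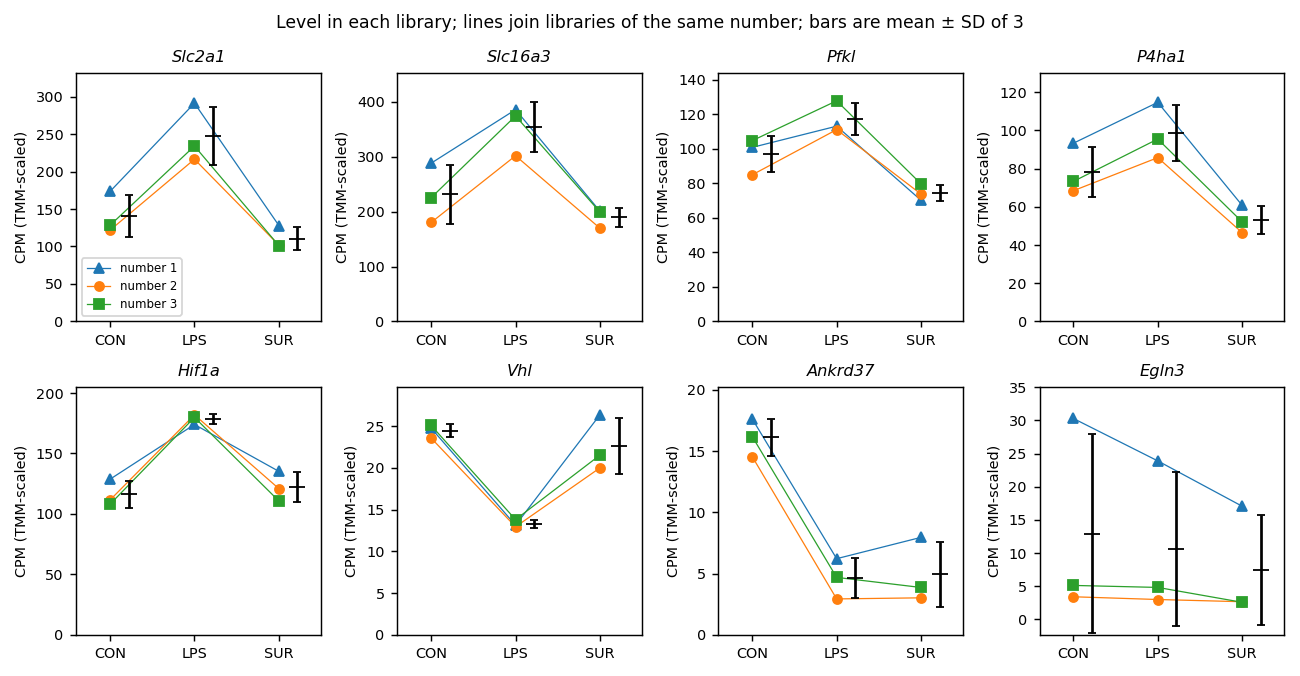
Level of 8 members in each library (vertical axis, TMM-scaled CPM on a linear axis from 0, except Egln3, where the axis runs below 0 to hold the error bars), with lines joining libraries of the same replicate number and black bars for the mean ± SD of 3. Slc2a1, Slc16a3, Pfkl, P4ha1 and Hif1a peak in LPS within every number, Vhl is lowest there, Ankrd37 is low in both LPS and SUR, and Egln3 is highest in library 1 of every group.

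The size of the smaller falls depended on scaling. The median gene in SUR against LPS sat at 0.08 with upper-quartile scaling and at 0.11 on FPKM, and the members lower and higher became 7 and 2 with the former (5.46% and 14.1% of all genes) and 6 and 2 with the latter (4.59% and 17.5%). DESeq2 called 2 members higher (10.5% of all genes), and the block with upper-quartile scaling called 18 lower and 6 higher (13.0% and 32.6% of all genes). The calls of Pfkp, Aldoa, Gapdh, Pkm and Mif were lost under both and that of Ldha on FPKM, while those of Slc2a1, Slc16a3, Pfkl, Pgam1, Hif1a, Vhl and P4ha1 were kept under both. Relative to that shift the enzyme median stayed below the median gene, at -0.13 against 0.08 and at -0.07 against 0.11.

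SUR against CON sets cells with both agents beside cells with neither. Nearly all of the 15 member enzymes, and the further HIF targets P4ha1 and Ankrd37, had lower estimates in SUR. Even so, edgeR called 0 of 36 members in either direction without the block. It called 0.39% of all genes higher and 0.0355% lower. At an unadjusted p under 0.05, 12 members were lower and 0 higher, where 2.99% of all genes were lower. DESeq2 called 10 members lower and 0 higher, where 0.302% and 2.0% of all genes were, and the authors' deposited table lists 3 lower and 0 higher with a q-value under 0.05 (Pgam1, Ldha and Ankrd37), and 0.0969% of all genes lower and 1.09% higher in it. With the block 19 members fell and 0 rose, where 4.18% of all genes fell and 7.37% rose; with the block and upper-quartile scaling the counts were the same, against 5.0% and 7.34%. Without the 3 libraries numbered 1, 7 fell and 0 rose, where 0.742% and 4.44% of all genes did.

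The direction was shared by most members. SUR was lower than CON within all 3 replicate numbers in 26 of 36 members (72.2%) and in 25.4% of all genes tested, and higher within all 3 in 3 members and 23.2% of all genes. The SUR libraries all lay below the CON libraries in 14 members (38.9%) and in 6.67% of all genes, and all lay above in 0 members, against 8.35% of all genes. The median log2 fold change was -0.17 for the members and -0.01 for all tested genes, and the member median kept between -0.16 and -0.18 under RLE, upper-quartile and FPKM scaling, since the median gene hardly moved in this comparison. This pattern was known when the members were proposed and is given as a description.

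Of the 15 enzymes, 14 had estimates below 0, 14 were lower within every number, and 11 fell with the block. Pfkl stood at 101, 85 and 105 CPM in CON and at 70.2, 73.8 and 79.7 CPM in SUR (log2 fold change -0.38, SE 0.0962, edgeR adjusted p = 0.19, and 0.00195 with the block). Pgam1 stood at 652, 623 and 631 CPM in CON and 511, 546 and 520.2 CPM in SUR (log2 fold change -0.27, SE 0.0555, edgeR adjusted p = 0.103, and 0.00193 with the block). Tpi1 stood at 473, 443 and 439.7 CPM in CON and at 398, 386 and 353 CPM in SUR (log2 fold change -0.25, edgeR adjusted p = 0.268, and 0.00277 with the block). In all 3 genes the groups did not overlap. The same held for Ldha (1139, 1093 and 1098 CPM in CON, log2 fold change -0.21), Aldoa (-0.18), Gapdh (-0.17), Gpi1 (-0.17), Pkm (-0.15) and Eno1 (-0.20), each with an edgeR adjusted p between 0.149 and 0.462 and called with the block. Hk1 and Hk2 overlapped between the groups (-0.17 and -0.26) and were called with the block too (adjusted p = 0.0248 and 0.0114). Without the block, leaving out CON 1 alone moved values of genes that were high in library 1. Hk2 moved to -0.06, Slc2a1 from -0.36 to -0.18, Slc16a3 from -0.28 to -0.10 and Eno1 from -0.20 to -0.13. Bnip3 moved from -0.47 to -0.19, Higd1a from -0.17 to -0.04 and Kdm3a from -0.24 to 0.01. Egln3 went from -0.80 to 0.80 and Pgk1 from -0.12 to 0.05, changing sign, and none of these was called in either fit. The fit without CON 1 kept SUR 1, the highest SUR library for these genes, so its replicate numbers were unbalanced. Without all 3 libraries numbered 1 the values were -0.20 for Hk2, -0.30 for Slc2a1, -0.14 for Slc16a3, -0.17 for Eno1 and -0.55 for Bnip3. They were -0.13 for Higd1a, -0.20 for Kdm3a, -0.71 for Egln3 and -0.14 for Pgk1. Slc2a1 and Bnip3 were called lower there (edgeR adjusted p = 0.017 and 0.0055). Pfkm was the exception in direction, with 36.1 ± 3.46 CPM in CON and 37.1 ± 2.52 CPM in SUR (SD, n = 3).

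As a share of all counts, which needs no scaling factor, the 15 enzymes made up 1.2%, 1.15% and 1.16% of the CON libraries, 1.13%, 1.08% and 1.08% of the LPS libraries and 1.05%, 1.01% and 1.02% of the SUR libraries. The 3 SUR libraries were below all others. The LPS libraries were below CON by this measure, whereas after TMM scaling the summed enzymes were 11526 to 11898 CPM in LPS, 11154 to 11605 CPM in CON and 9906 to 10084 CPM in SUR. The order of LPS and CON thus depended on the scaling and the place of SUR below both did not.

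**Figure D3:**
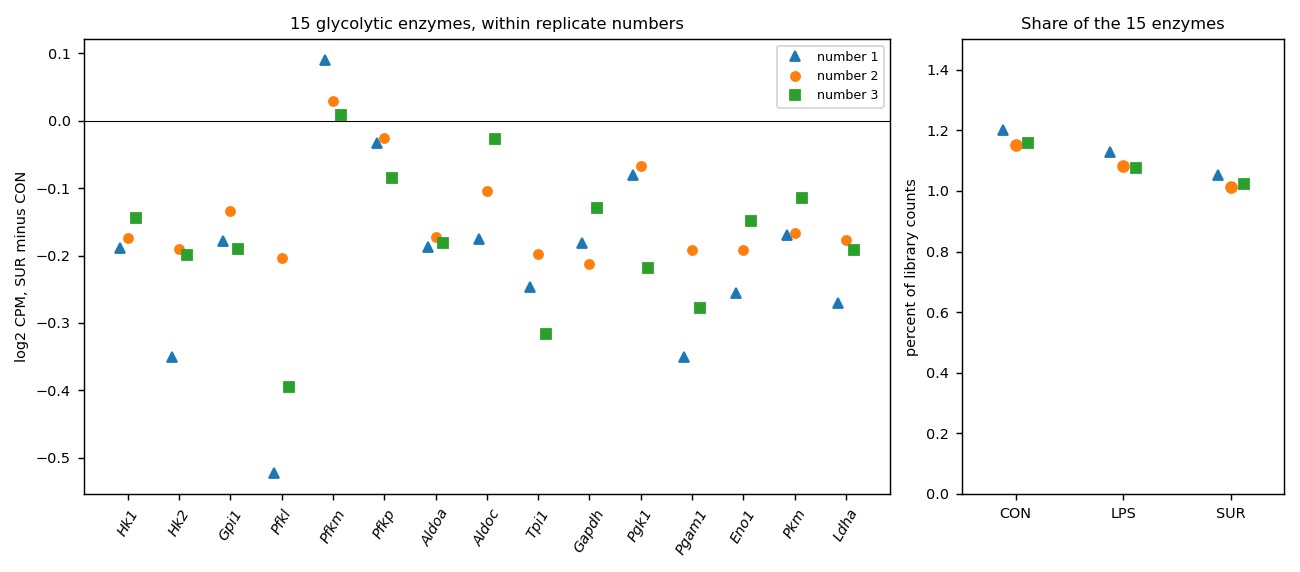
Left, difference in log2 CPM between SUR and CON for each of the 15 glycolytic enzymes within replicate numbers 1, 2 and 3; right, share of each library's counts in the 15 enzymes, on an axis from 0. Points lie below 0 for 14 enzymes in all numbers and above 0 for Pfkm, and the SUR libraries (1.01% to 1.05%) lie below the CON libraries (1.15% to 1.2%).

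Outside the enzymes, P4ha1 stood at 93.3, 68.4 and 73.3 CPM in CON and 60.8, 46.5 and 52.1 CPM in SUR. The groups were apart (log2 fold change -0.56, SE 0.153, edgeR adjusted p = 0.226, and 5.9e-05 with the block). Ankrd37 had the largest estimate, -1.70 (SE 0.358, edgeR adjusted p = 0.112, and 0.000466 with the block). Egln1 was at 67.9 ± 0.881 CPM in CON and 55.7 ± 3.22 CPM in SUR (SD, n = 3; log2 fold change -0.29, edgeR adjusted p = 0.107, and 0.00342 with the block). Bnip3 and Kdm3a, a histone demethylase gene, were lower within every number and called with the block (adjusted p = 0.000986 and 0.0129). Hif1a (log2 fold change 0.08), Arnt (-0.01), Vhl (-0.11), Ero1l (0.00) and Mif (-0.08) were not called with or without the block. Slc2a1 overlapped between CON and SUR (log2 fold change -0.36, edgeR adjusted p = 0.589) but was lower within numbers by 0.44, 0.26 and 0.34, and fell with the block (adjusted p = 0.000858), as did Slc16a3 (adjusted p = 0.0381).

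Enzymes and further HIF targets can be set side by side, with no test of the difference between them. In SUR against LPS, 7 of 15 enzymes (46.7%) and 2 of 11 further targets (18.2%) fell, where 7.93% of all genes did. The medians were -0.22 and -0.25. Calls depend on the SE as well, which in SUR against LPS ran from 0.046 (Gapdh) to 0.242 (Aldoc) among the enzymes. Among the further targets it ran from 0.0553 (Plod1) to 0.478 (P4ha2). In SUR against CON the medians were -0.18 and -0.17. With the block 11 of 15 and 4 of 11 fell there, where 4.18% of all genes did. The enzymes lay in a narrow range (-0.38 to 0.04 in SUR against CON), while the further targets ran from -1.70 for Ankrd37 to 0.11 for Ndrg1, a stress-response gene.

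Several HIF-induced genes also differed between libraries of the same group. Egln3, a HIF prolyl hydroxylase gene that HIF itself induces (chromosome 12, 54178981 to 54203874), stood at 30.3, 3.41 and 5.12 CPM in CON 1, 2 and 3, at 23.9, 3.0 and 4.82 CPM in LPS and at 17.1, 2.66 and 2.57 CPM in SUR. In each group library 1 was several times above the other two. Its log2 fold change of -0.80 in SUR against CON had an SE of 1.09 and an edgeR adjusted p of 0.967; with the block it was called (adjusted p = 0.00238), lower by 0.82, 0.34 and 0.96 within numbers. Bnip3 stood at 80.7, 53 and 44.6 CPM in CON, 70.2, 43.4 and 43.9 CPM in LPS and 61.7, 35.7 and 31.2 CPM in SUR, again with library 1 highest. Kdm3a showed the same order of library 1, at 135, 90.6 and 80.4 CPM in CON, 125, 78.3 and 81.4 CPM in LPS and 109.6, 78.2 and 70.7 CPM in SUR.

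The excess of library 1 over the mean of libraries 2 and 3 was above 0 in all 3 groups for 17 of 36 members (47.2%) and 36% of all genes tested, and for 7 of 11 further HIF targets (63.6%) and 5 of 15 enzymes (33.3%). Its mean over groups was 2.69 on the log2 scale for Egln3, 0.77 for Bnip3, 0.71 for Ankrd37, 0.62 for Kdm3a, 0.54 for Ero1l, 0.48 for Pgk1, 0.42 for Hk2, 0.39 for Slc2a1 and Higd1a (a mitochondrial hypoxia-induced gene), 0.35 for P4ha1, 0.31 for Arnt and 0.30 for Pdk1. P4ha2 (0.56) rests on under 1 CPM. In the other direction, the difference was below 0 in all 3 groups for 5 members (13.9%) and 33.5% of all genes, so library 1 stood apart across the genome. Macrophage genes outside the set were among these: Lyz2 had 1781, 3683 and 3600 CPM in CON, and Mrc1 had 70.1, 177 and 178 CPM. It was near 0 for Gapdh, Pgam1, Pkm and Ldha (-0.01 to 0.02). Library 1 was instead lowest in every group for Aldoc (-0.62), Pfkfb4 (-0.52), Hk1 (-0.22) and Pfkm (-0.16). Enzymes fell on both sides: Pgk1 and Hk2 were highest in library 1 of every group, and Aldoc, Hk1 and Pfkm lowest. Replicate number is not described in the labels beyond its digit, and what differed between numbers was not tested.

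**Figure D4:**
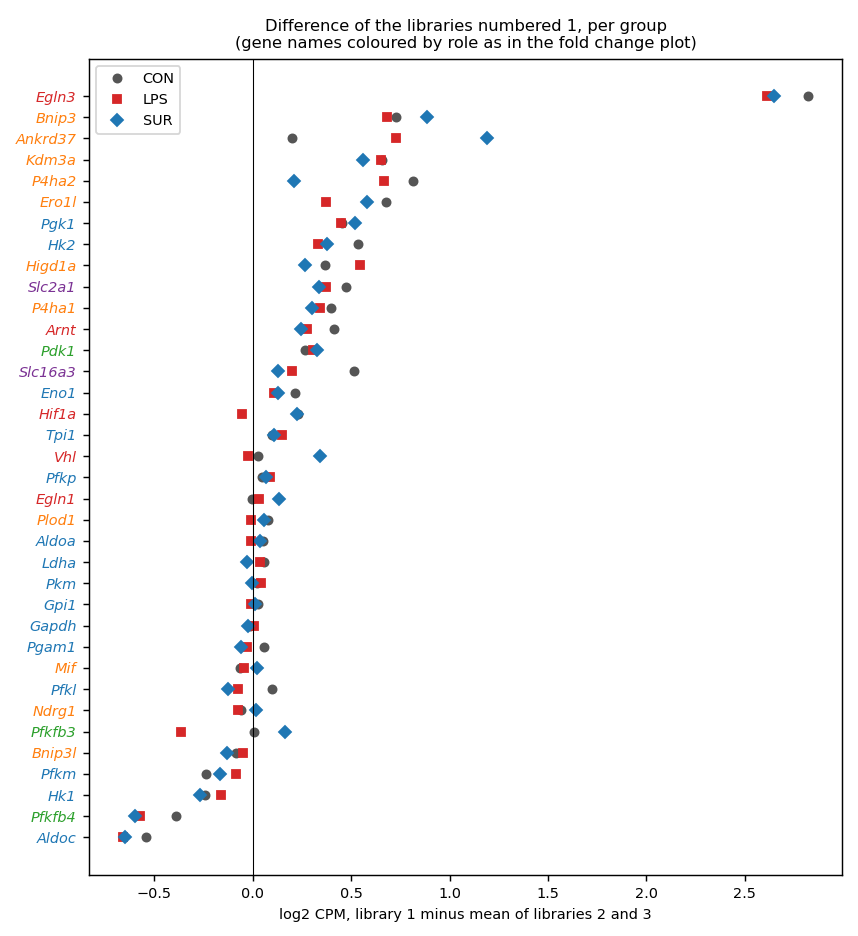
Difference in log2 CPM (horizontal axis) between the library numbered 1 and the mean of libraries 2 and 3 in CON, LPS and SUR, for the 36 members sorted by their mean, with names coloured by role. Egln3 stands at 2.61 to 2.82 in all 3 groups, 7 of 11 further HIF targets lie above 0 in all 3 groups, and Aldoc and Pfkfb4 lie between -0.39 and -0.66.

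Other genes of these pathways were read from lists. Of 11 tested further glycolysis genes, 2 rose and 0 fell with LPS and 1 fell in SUR against LPS (18.2%, 0% and 9.09%, beside 8.98%, 9.36% and 7.93% of all genes). In SUR against CON 0 of the 11 were called, with 7 estimates below 0, 4 above and a median of -0.025. SUR was lower within all 3 numbers in 18.2% of them and 25.4% of all genes. The SUR libraries all lay below CON in 0 of them and all above in 2 (18.2%), against 6.67% and 8.35% of all genes. The lower values of the member enzymes were thus not shared by this list. Slc2a6, a glucose transporter family gene, rose with LPS from 54.3 ± 7.79 to 246 ± 19.1 CPM (SD, n = 3; log2 fold change 2.18, edgeR adjusted p = 4e-05) and fell to 80.7 ± 11.9 CPM in SUR (log2 fold change -1.61, edgeR adjusted p = 0.00021). Adpgk, an ADP-dependent glucokinase gene, rose by 0.28 on the log2 scale (edgeR adjusted p = 0.0209), a call lost with upper-quartile and FPKM scaling and without any CON library, LPS 1 or LPS 2 (edgeR adjusted p up to 0.0759).

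Of 28 tested further HIF pathway and target genes, 4 rose and 3 fell with LPS, 2 rose and 3 fell in SUR against LPS, and 1 fell in SUR against CON. The shares were 14.3% and 10.7% with LPS (8.98% and 9.36% of all genes), 7.14% and 10.7% in SUR against LPS (9.29% and 7.93%), and 3.57% lower in SUR against CON (0.0355%). Cited2, a competitor of HIF for its co-activators, went from 112 ± 42.9 to 844 ± 68.9 CPM with LPS (log2 fold change 2.92, edgeR adjusted p = 7.9e-05) and stood at 253 ± 17 CPM in SUR (SD, n = 3; log2 fold change -1.74 against LPS, edgeR adjusted p = 0.00124). Bhlhe40, a transcriptional repressor gene, rose by 1.03 and fell by 0.82 (edgeR adjusted p = 0.000488 and 0.00207). Angptl4, a lipoprotein lipase inhibitor gene, fell 4.26-fold with LPS and was 3.71-fold higher in SUR than in LPS, at 5.99 ± 1.17, 1.40 ± 0.285 and 5.22 ± 0.344 CPM in CON, LPS and SUR (SD, n = 3). Zfp395, a zinc finger gene, fell by 0.79 and rose by 0.79 on the log2 scale (edgeR adjusted p = 0.000528 and 0.000811). Ddit4, an mTOR inhibitor gene, fell 4.08-fold with LPS, from 38.3 ± 3.94 to 9.37 ± 1.34 CPM. It was low in SUR as well (12.7 ± 2.79 CPM, log2 fold change -1.59 against CON, edgeR adjusted p = 0.0117, n = 3), a call lost without CON 2, CON 3, SUR 2 or SUR 3 (edgeR adjusted p up to 0.0833). That call was also lost when only CON and SUR were fitted.

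Downstream of pyruvate, 1 of 11 tested genes rose and 1 fell with LPS, and 1 rose in SUR against LPS, each 9.09% of the list and near the share of all genes (8.98%, 9.36% and 9.29%). Dld, the dihydrolipoamide dehydrogenase gene, rose by 0.20 with LPS (edgeR adjusted p = 0.0491), a call lost in 7 of the 9 fits that left out a library (edgeR adjusted p up to 0.159). The call was also lost with upper-quartile and FPKM scaling, with no count filter and when only CON and LPS were fitted. Pdp2, a phosphatase that reopens pyruvate dehydrogenase, had 35.1 ± 1.21 CPM in CON, 22.9 ± 3.26 in LPS and 35.1 ± 1.22 in SUR (SD, n = 3; log2 fold changes -0.61 and 0.62, edgeR adjusted p = 0.00323 and 0.00405). Of 7 pentose phosphate pathway genes edgeR called 0 in any comparison, with medians of -0.08, 0.01 and -0.08 in LPS against CON, SUR against LPS and SUR against CON. Among the genes named from these lists, the block added Adpgk and Dld lower and Ddit4 higher in SUR against LPS (adjusted p = 0.0307, 0.00169 and 0.0268), and Slc2a6 and Cited2 higher in SUR against CON (adjusted p = 0.00844 and 0.000685).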

How the data were processed

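The 9 libraries of MH-S RNA were made with an MGIEasy kit, per the labels' protocols. HISAT2 2.0.4 and build GRCm38 (mm10) are named in the submitters' processing notes; how reads were counted, and on which annotation, is not given in the sources used here. Expected counts, as deposited per the file headers, are the authors' unnormalized estimates for each gene (93.4% whole) and were rounded before testing. FPKM, scaled for length and depth per the file headers, were deposited too and served to compare levels between genes. The deposited TPM values summed to 999999 to 1000001 per library and were only checked. The authors' deposited log2 fold changes and DESeq2 q-values were used only to count members.

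edgeR 4.0.16 (R 4.3.3) kept 11281 genes by filterByExpr; TMM factors ran from 0.934 to 1.04. The quasi-likelihood F test used all 9 libraries, a mean per group and no covariate, with Benjamini-Hochberg adjustment at 0.05. Standard errors were derived from the F statistic. CPM are TMM-scaled. Differences within replicate numbers are log2 CPM with a prior count of 2. The test was checked on simulated counts that had no effect of replicate number, so the check does not cover the differences between numbers seen here. Alternatives were RLE and upper-quartile scaling, no count filter, DESeq2 1.42.0, limma-voom and limma 3.58.1 on log2(FPKM + 1), the replicate block, pairwise fits, leaving out libraries, and the block with upper-quartile scaling, added after the data were seen.

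Groups share replicate numbers. Deviations from group means correlated between same-numbered libraries at 0.435 to 0.801 in all 9 pairs, so numbers were taken to pair libraries. Much of this is library 1 against the others: libraries 2 and 3 of different groups also correlated, at 0.347 to 0.437, and library 1 with either at -0.643 to -0.521. The labels do not say what a number marks; blocked values are given where they change a call. Values in every library were given for members called in a comparison without overlap of its groups, and for Hif1a, Arnt and Vhl; values of Egln3, Bnip3, Kdm3a, Ero1l, Tpi1 and Pfkfb3 by library were added after they were seen. Up to 4 called genes per comparison, those with the largest changes, were named from each other list. Members and lists were chosen with earlier results of these data known. Coordinates and promoters are from RefSeq, GRCm38.p6. Figures used matplotlib 3.10.9.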

Additional observations from a re-analysis of the deposited data

How the results depend on the processing

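No member called in a comparison changed sign in it under any alternative run; Pkm, not called in LPS against CON (0.02), was called lower there (-0.077) with the block and upper-quartile scaling together. In LPS against CON, members called higher went from 3 to 7 with DESeq2, 10 without the libraries numbered 1, 11 with the replicate block and 6 with the block and upper-quartile scaling, and members called lower from 4 to 7 with the block and 14 with the block and upper-quartile scaling. In SUR against LPS, members called lower went from 12 to 7 with upper-quartile scaling, 6 on FPKM and 23 with the block, and members called higher from 1 to 2 with DESeq2, upper-quartile scaling or FPKM, 4 with the block and 6 with the block and upper-quartile scaling. In SUR against CON, members called lower went from 0 to 10 with DESeq2, 7 without the libraries numbered 1, and 19 with the block, alone or with upper-quartile scaling. Apart from the fits with fewer samples, the cause was not tested. Leaving out 1 library at a time gave 2 to 5 higher and 2 to 4 lower in LPS against CON, 1 higher and 9 to 14 lower in SUR against LPS, and 0 higher and 0 to 1 lower in SUR against CON. For the members and other genes with values in the report, each call that the block changed is given there. P4ha2 (below 1 CPM) is limited by depth. Egln3 was below 6 CPM in libraries 2 and 3, and library 1 stood 2.61 to 2.82 above their mean on the log2 scale. That difference between libraries widens its spread in fits without the block.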
